A study of Mus musculus with 170 samples.

Results

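Gene expression was compared between old and young mice in 6 RNA sequencing libraries labelled as fibroblasts of lymph nodes. The members were chosen by name, as all libraries of this sort in the deposited count table, and make up 6 of the 170 libraries of the series, which covers 23 cell types. The old group held 3 libraries from animals of 22 to 24 months, and the young group 3 libraries from animals of 2 months. All animals were labelled healthy and of C57/Bl6 background, with no treatment other than age, and cells were purified by flow cytometry with gates that the sources used here do not give. Each library pooled the tissue of 5 animals, so the spread between libraries is a spread between pools, and a fold change is the difference of 3 pools from 3 pools. Old and young pools are different animals, and age cannot be told apart from cohort.

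Fibroblasts of lymph nodes, the fibroblastic reticular cells, build a network of collagen conduits wrapped by the cells themselves. They make the chemokines CCL19 and CCL21 that draw T cells and dendritic cells, and interleukin 7 that keeps T cells alive. They carry podoplanin (Pdpn) on their surface and depend on the lymphotoxin beta receptor (Ltbr) for their identity. They also secrete complement components and respond to interferons, and with age lymph node stroma is known for a loss of order and for fibrosis. Matrix made by fibroblasts includes fibrillar collagens, and cartilage cells make a distinct set of matrix proteins built around collagen II, IX and XI.

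Total counts ran from 2116285 to 6586459 per library. Levels below are in CPM, counts scaled by library size and TMM, a scaling that assumes most genes do not differ, given for replicates 1, 2 and 3 in that order. Of 55484 genes, 13321 had enough counts to be tested. Fold changes are on the log2 scale, positive where old is higher, and carry the standard error of the fit. They and all p-values come from edgeR's quasi-likelihood test, and a gene is called past an adjusted p (Benjamini-Hochberg over all genes tested) of 0.05. That scale, over these libraries alone, is used unless levels are set beside other sorts. There, counts are scaled by the total count of each library only, without TMM, which is called the scale of all libraries below.

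The label was checked first. Of its markers, Pdpn had 1240, 658 and 794 CPM in old and 418, 1190 and 469 CPM in young libraries. Ccl19 had 0.318, 29.5 and 27.7 CPM in old libraries, with 1, 63 and 120 counts, and 16.8, 20.8 and 19.4 CPM in young libraries. Old replicate 1 thus had almost no Ccl19, and the other 5 libraries lay close together. On the scale of all libraries, the mean Ccl19 level of 19.8 CPM in old and 18.6 CPM in young was exceeded by 3 of the 44 other groups of cell type and age. The general fibroblast genes Pdgfra, Pdgfrb, Col1a1, Col3a1 and Ltbr were present in every library, as the plot of markers by library shows. Of the 44 other groups, 5 exceeded both means of Pdpn, 6 those of Pdgfra and of Pdgfrb, 7 those of Ltbr and 0 those of Col1a1 and Col3a1. Pdgfra averaged 128 CPM in old and 93.1 CPM in young. It averaged 410.5 CPM in old and 550 CPM in young muscle fibroblasts, and 428 CPM in old and 452 CPM in young thymic fibroblasts. On the same scale as these means of Ccl19, Ptprc, the pan-leukocyte marker CD45, averaged 1.94 CPM in old and 1.97 CPM in young. Pecam1, the endothelial marker CD31, averaged 5.65 CPM in old and 6.50 CPM in young, also on that scale.

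**Figure D1:**
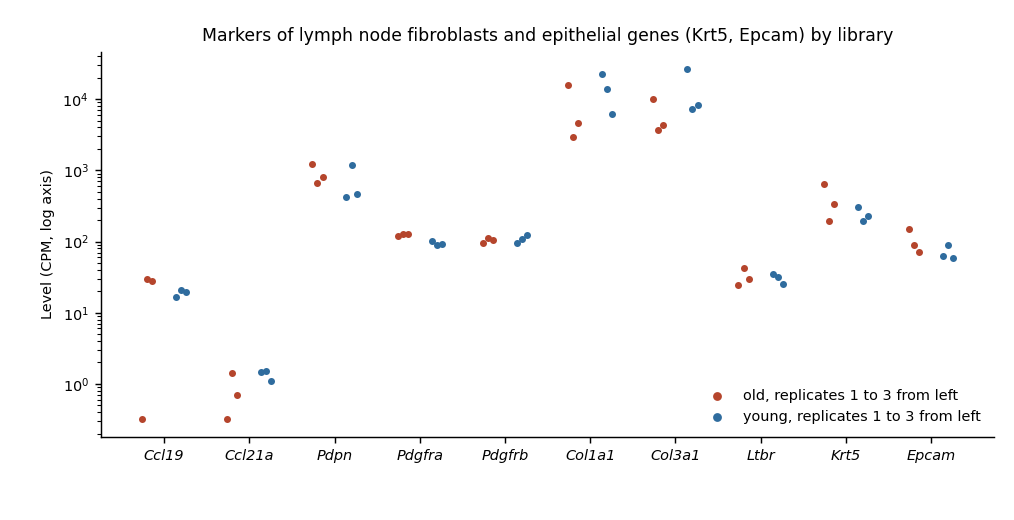
Levels (CPM, log axis) of 8 markers of lymph node fibroblasts and 2 epithelial genes in each library, old in red to the left of young in blue, replicates 1 to 3 from left. Ccl19 had 1 count in old replicate 1 (0.318 CPM) and at least 16.8 CPM in each other library, and Ccl21a had at most 1.51 CPM in any library.

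Other values went against the label. Ccl21a, the other main chemokine of these cells, had 1, 3 and 3 counts in old and 9, 5 and 5 counts in young libraries, which is 0.823 CPM in old and 1.32 CPM in young on the scale of all libraries. Lymph node endothelial cells of the same series averaged 79.4 CPM of Ccl21a in old and 210.5 CPM in young, and thymic fibroblasts 83.6 CPM in old and 62.1 CPM in young. Tnfsf11, a cytokine of marginal reticular cells, had at most 6 counts in any library, and Madcam1, an adhesion molecule of the same cells and of lymph node vessels, had 0 in all 6. The basal epithelial keratin Krt14 averaged 1221 CPM in old and 868 CPM in young libraries, against 0 CPM in old and 0.363 CPM in young lymph node endothelial cells. Muscle fibroblasts averaged 0.127 CPM in old and 0.131 CPM in young, and thymic fibroblasts 39.1 CPM in old and 32.3 CPM in young. Libraries labelled skin fibroblasts averaged 8074 CPM in old and 7331 CPM in young. Their Pdgfra was only 2.77 CPM in old and 5.12 CPM in young, so they are a poor reference for fibroblasts. The summed level of 8 epithelial markers was 1103 to 2805 CPM in old and 1142 to 1447 CPM in young libraries.

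Cytl1, a secreted cytokine-like protein known from cartilage, averaged 4509 CPM in old and 4613 CPM in young libraries, and at most 184 CPM in any of the 44 other groups. Hox genes, which fibroblasts keep as a record of body position, were low: the sum over 39 of them was 44.8 CPM in old and 37.4 CPM in young. It was 384 CPM in old and 306 CPM in young muscle fibroblasts, and 141.5 CPM in old and 101.4 CPM in young thymic fibroblasts. The libraries labelled skin fibroblasts, with little Pdgfra, had 17.2 CPM in old and 18.9 CPM in young. Which cells carried the epithelial and cartilage RNA was not tested, and these libraries are named below by their label only. In bulk RNA, fewer cells of a type and less RNA per cell cannot be told apart.

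Age changed few genes past the threshold. Of 13321 genes tested, 34 were called (0.255%), 15 higher in old (0.113%) and 19 lower (0.143%), and 1084 had an unadjusted p under 0.05. The median log2 fold change over all genes tested was 0.0079. Among the genes that fell were matrix genes, above all of cartilage, with Col8a1, Sparc and the imprinted gene Peg3. Complement genes, the immunoproteasome subunit Psmb8, the leptin receptor Lepr and the secreted protein cochlin (Coch) were among those that rose. The plot of age change by level gives each of them beside the genes that were not called.

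**Figure D2:**
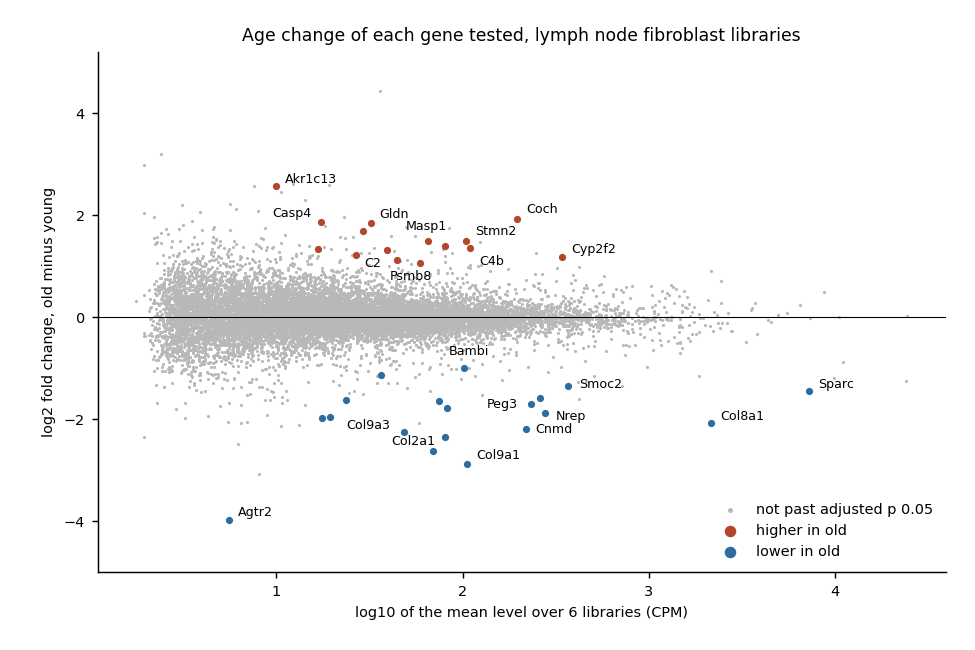
Log2 fold change of each of the 13321 genes tested (old minus young) against the log10 of its mean level over the 6 libraries in CPM. Red points are the 15 genes called higher in old, blue points the 19 called lower, and grey points the rest, centred on a median of 0.0079.

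The number of calls rested on single libraries. It was 0 without old replicate 3, where 1115 genes had an unadjusted p under 0.05, 3 without young replicate 3, 6 without old replicate 2, 14 without young replicate 1, 26 without young replicate 2 and 36 without old replicate 1. All 34 genes kept their sign in each of these 6 fits. This could hardly come out otherwise, since the ages did not overlap for any of the 34. Casp4, C4b, Sectm1a, Slit2, Erg and Osgin2 were called in none of these 6 fits. DESeq2 called 134 genes, among them all 34.

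Young replicate 1 differed from the other libraries in other measures too. Its 10 most abundant genes held 17.2% of counts, against 9.69% to 11.3% in the other libraries, and the Y-linked gene Ddx3y had 42.8 CPM in it and at most 0.953 CPM in the others. The part of either in the results was not tested. Without this library, 12 of the 34 genes were still called.

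Cartilage matrix genes were 8 of the 19 genes called lower. Col9a1, an alpha chain of collagen IX (chr 1, 24177610 to 24252684, plus strand, GRCm38 as all coordinates here), had 21.0, 34.6 and 21.2 CPM in old and 258, 140 and 159 CPM in young libraries. The highest old library lay far below the lowest young one. Its log2 fold change was -2.88 ± 0.29 with an adjusted p of 0.00718, and it was called in 5 of the 6 fits that left out 1 library.

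Col2a1, the main collagen of cartilage (chr 15, 97975602 to 98004695), had 17.5, 30.4 and 31.2 CPM in old and 191, 87.6 and 126 CPM in young libraries, with no overlap, and a log2 fold change of -2.36 ± 0.31 (adjusted p = 0.0158). Col9a3, another chain of collagen IX (chr 2, 180597790 to 180622189), fell by 2.26 on the log2 scale (adjusted p = 0.0153). Col11a1, a chain of collagen XI that is built into the same fibrils (chr 3, 114030540 to 114220718), had 143, 123 and 122 CPM in old and 454, 350 and 365 CPM in young libraries. The old libraries lay close to each other, and the log2 fold change was -1.59 ± 0.17 (adjusted p = 0.0098). Col11a1 fell outside the rule for naming and was picked after its values were seen.

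Cnmd, chondromodulin, an inhibitor of vessel growth in cartilage (chr 14, 79637690 to 79662170), had 45.1, 118 and 74.6 CPM in old and 419, 293 and 370 CPM in young libraries. The lowest young level was well above the highest old one, and the log2 fold change was -2.19 ± 0.31 (adjusted p = 0.0227). Hapln1, Matn3 and Mia, further genes of cartilage matrix, were also called lower. Hapln1, which links hyaluronan to aggrecan (chr 13, 89539796 to 89611652), averaged 7.87 ± 2.11 CPM in old and 30.8 ± 4.12 CPM in young libraries (SD, n = 3 each). Matn3, the matrilin of growth plates (chr 12, 8947929 to 8972028), averaged 7.01 ± 1.94 CPM in old and 28.1 ± 7.91 CPM in young libraries (SD, n = 3 each). Mia, a secreted protein of cartilage and melanoma cells (chr 7, 27179742 to 27181157), averaged 37.3 ± 14.8 CPM in old and 126.9 ± 6.57 CPM in young libraries (SD, n = 3 each).

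A list of 23 cartilage genes was drawn up after these values were seen, so its counts are a description with no test. Of the 20 with enough counts, 8 were called lower, against 0.143% of all genes tested, and 0 higher. Negative log2 fold changes were found for 18, and the median was -1.47, against 0.0079 over all genes tested. The 3 others, Col10a1, Matn1 and Epyc, had at most 7 counts in any library. Libraries of the ages did not overlap, with old lower, for 15 of the 20, against 6.29% of all genes tested. Among these were genes that missed the threshold: Acan, the large proteoglycan of cartilage, at 14.6, 27.1 and 19.4 CPM in old and 61.2, 41.9 and 43.4 CPM in young libraries (adjusted p = 0.0826), and Sox9, the transcription factor that drives cartilage genes, at 710, 704 and 548 CPM in old and 1010, 1935 and 942 CPM in young libraries (adjusted p = 0.299).

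Not all cartilage genes differed in this way. Comp, a matrix protein of cartilage and tendon, had 92.7, 159 and 278 CPM in old and 116, 142 and 229 CPM in young libraries. Chad, chondroadherin, had 514 to 1266 CPM in old and 600 to 1702 CPM in young libraries, and Prg4, the lubricin of joint surfaces, 161 to 288 CPM in old and 87.0 to 230 CPM in young ones. The ages overlapped for each of them. Of 6 tendon genes, also listed after the values were seen, 0 were called by edgeR or DESeq2, 1 had an unadjusted p under 0.05, 6 had a negative log2 fold change and the median was -0.39. Over the fits that left out 1 library, the count of cartilage genes called lower was 0 (without old replicate 3) to 8 and their median log2 fold change -1.60 to -1.24.

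**Figure D3:**
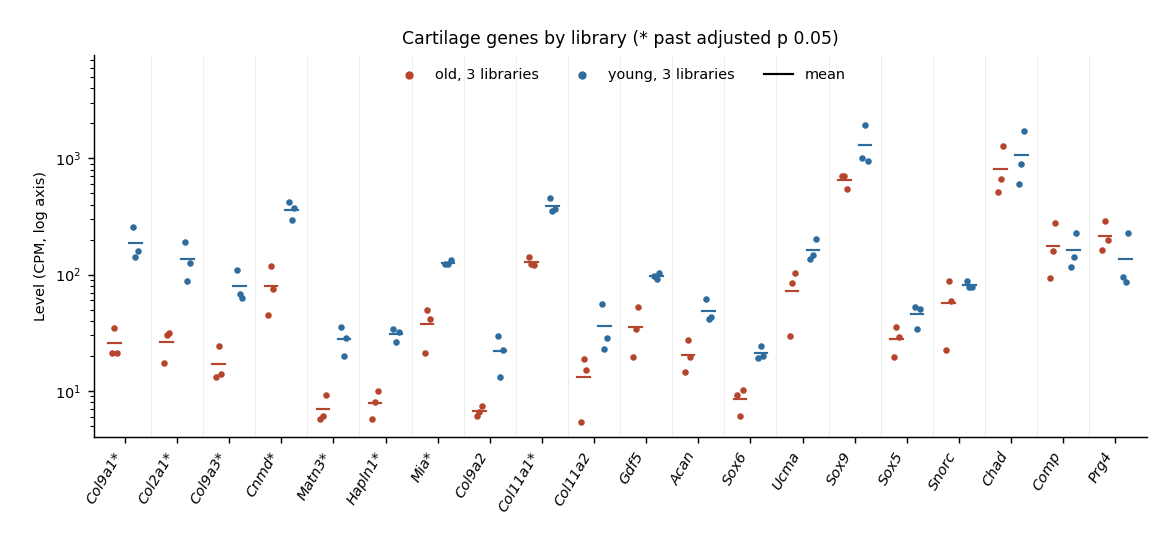
Levels (CPM, log axis) of 20 cartilage genes in each old (red, left) and young (blue, right) library, with the mean as a line, ordered by log2 fold change. The 8 genes with an asterisk were past an adjusted p of 0.05, and Comp, Chad and Prg4 at the right end overlap between the ages.

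The promoters of Col9a1 and Col11a1 are shown because these genes fell together. The table holds a pair of start sites for Col9a1, of which the first is shown. Each window holds 250 bases before and 50 after the start of the transcript, from RefSeq on GRCm38.p6, 5′ to 3′ on the plus strand, at chr1:24177360-24177659 and chr3:114030290-114030589.
Col9a1: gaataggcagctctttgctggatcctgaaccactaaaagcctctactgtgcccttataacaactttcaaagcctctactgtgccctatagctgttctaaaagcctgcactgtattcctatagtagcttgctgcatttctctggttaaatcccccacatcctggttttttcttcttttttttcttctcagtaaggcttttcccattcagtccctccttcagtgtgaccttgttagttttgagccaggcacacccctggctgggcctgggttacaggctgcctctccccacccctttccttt
Col11a1: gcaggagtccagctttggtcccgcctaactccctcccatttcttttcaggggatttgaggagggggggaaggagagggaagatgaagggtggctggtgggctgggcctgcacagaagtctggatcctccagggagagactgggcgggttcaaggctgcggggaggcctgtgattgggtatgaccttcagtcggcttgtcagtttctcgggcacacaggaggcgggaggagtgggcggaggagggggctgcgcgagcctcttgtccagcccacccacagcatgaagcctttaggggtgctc
No letters are in capitals, since neither window holds ACAAAG or ACAATG, some of the forms of the site bound by SOX factors, on either strand. Other forms of that site were not searched for, so the windows may hold them. ACAAAG occurs in 18.7% and ACAATG in 12.6% of the 32851 promoters of the same length in that table.

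Other matrix genes outside cartilage also fell. Col8a1, a short-chain collagen of vessel walls and basement membranes (chr 16, 57624258 to 57754737), had 540, 851 and 1084 CPM in old and 4027, 2747 and 3715 CPM in young libraries. Each young library was above each old one by a wide margin, and the log2 fold change was -2.08 ± 0.28 (adjusted p = 0.0158). Sparc, osteonectin, a collagen-binding glycoprotein (chr 11, 55394500 to 55423183), had 4516, 3491 and 3670 CPM in old and 12730, 8764 and 10570 CPM in young libraries. The ages did not overlap, and the log2 fold change was -1.46 ± 0.23 (adjusted p = 0.0342). Smoc2, a relative of Sparc that also binds calcium (chr 17, 14279506 to 14404790), fell by 1.36 on the log2 scale (adjusted p = 0.0153).

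The list of fibrillar and associated collagens does not hold the called genes Col2a1, Col9a1, Col9a3 and Col11a1, which are in the cartilage list. Of its 16 genes tested, Col8a1 alone was called, 14 had a negative log2 fold change and the median was -0.34. Without young replicate 1, 0 were called by edgeR, 10 had a negative log2 fold change and the median was -0.15. Over the other fits the median reached -0.51, without old replicate 1. The common collagens varied strongly between libraries of the same age. Col1a1 had 15800, 2981 and 4630 CPM in old and 22800, 14110 and 6099 CPM in young libraries, and Col3a1 10110, 3651 and 4360 CPM in old and 26060, 7258 and 8209 CPM in young libraries. The ages overlapped for both. Of 21 basement membrane and conduit genes, 1 was called (Sparc, lower), with a median of 0.04, and of 34 matrix glycoproteins and proteoglycans 1 was called (Smoc2, lower), with a median of -0.08. Of 39 matrix proteases, inhibitors and crosslinking enzymes, 0 were called by edgeR, and 13 had an unadjusted p under 0.05, against 1084 of all 13321 genes tested. DESeq2 called 3, and the median was 0.0078.

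Peg3, an imprinted gene that encodes a zinc finger protein and is expressed from the paternal copy (chr 7, 6703892 to 6730431), had 99.1, 116 and 110 CPM in old and 407, 333 and 325 CPM in young libraries. All old libraries lay within a narrow range far below the young ones. Its log2 fold change was -1.71 ± 0.17 with an adjusted p of 0.00718. Of 14 imprinted growth genes tested it alone was called, the median was -0.20, and 4 did not overlap with old lower (6.29% of all genes tested did not), the others being Meg3, Cdkn1c and H19. Meg3, a maternally expressed long RNA, had 74.0, 58.5 and 49.6 CPM in old and 136, 114 and 120 CPM in young libraries (adjusted p = 0.0661).

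Nrep, neuronal regeneration related protein, linked to wound fibroblasts (chr 18, 33437019 to 33464029), had 130, 124 and 102 CPM in old and 471, 380 and 459 CPM in young libraries. The groups were far apart, and the log2 fold change was -1.89 ± 0.17 (adjusted p = 0.00718). Nrep, Peg3 and Col9a1 were each called in 10 of the 11 other fits that were run, with old replicate 3 left out as the exception. Erg, a transcription factor of endothelium and of cartilage (chr 16, 95359169 to 95586593), averaged 11.4 ± 3.98 CPM in old and 36.0 ± 6.10 CPM in young libraries (SD, n = 3 each), and passed by a small margin (adjusted p = 0.0498) that was lost in each of the 6 fits that left out 1 library. Dipk2a, which encodes a secreted kinase-like protein, averaged 36.3 ± 7.60 CPM in old and 114 ± 18.0 CPM in young libraries (SD, n = 3 each; adjusted p = 0.0153).

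The remaining 4 genes called lower fell outside the rule for naming and are named because the count is small. Agtr2, the type 2 angiotensin receptor, had 0.953, 0.936 and 0.231 CPM in old and 13.5, 9.34 and 8.38 CPM in young libraries, and its log2 fold change of -3.98 ± 0.50 was the lowest of the called genes. Bambi, a decoy receptor for TGF-beta and BMP signals, had 66.1, 69.7 and 67.9 CPM in old and 137, 126 and 142 CPM in young libraries. Osgin2, an oxidative stress induced gene, averaged 22.7 ± 1.51 CPM in old and 50.1 ± 7.55 CPM in young libraries, and 1520401A03Rik, an unnamed gene model, 19.5 ± 9.31 CPM in old and 119.6 ± 43.6 CPM in young libraries (SD, n = 3 each). The log2 fold change of 1520401A03Rik was -2.62 ± 0.35.

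Complement genes made up the largest group of called genes higher in old among the lists. Of 15 complement components and regulators tested, 4 were called higher, against 0.113% of all genes tested, and 0 lower. A positive log2 fold change was found for 12, and the median was 0.60, against 0.0079 over all genes tested. Libraries did not overlap, with old higher, for 9 of the 15, against 7.33% of all genes tested.

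C2, the protease of the classical and lectin pathway convertase (chr 17, 34862604 to 34898265), had 59.1, 57.6 and 52.4 CPM in old and 25.6, 19.9 and 22.3 CPM in young libraries. The ages were far apart, and the log2 fold change was 1.31 ± 0.17 (adjusted p = 0.0153).

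C4b, the component that pairs with C2 in that convertase (chr 17, 34728380 to 34743882), had 173, 137 and 161 CPM in old and 62.8, 47.9 and 73.9 CPM in young libraries. Every old library was above every young one, with a log2 fold change of 1.35 ± 0.19 (adjusted p = 0.0227), a call that was lost in each of the 6 fits that left out 1 library. C4b has a near-identical copy, C4a, which had too few counts to be tested, and the sources used here do not give how reads were split between them. Masp1, a protease that starts the lectin pathway (chr 16, 23449417 to 23520815), had 127, 71.1 and 89.1 CPM in old and 35.0, 31.0 and 36.4 CPM in young libraries, with a log2 fold change of 1.49 ± 0.22 (adjusted p = 0.027).

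Other complement genes were not called but lay apart. C3, the central component, had 324, 521 and 422 CPM in old and 198, 236 and 218 CPM in young libraries (adjusted p = 0.103), and C1s1, a protease of the classical pathway, 196, 151 and 201 CPM in old and 104, 86.1 and 102 CPM in young libraries (adjusted p = 0.0821). Serping1, which inhibits the classical pathway proteases, had 907, 917 and 889 CPM in old and 538, 585 and 668 CPM in young libraries (adjusted p = 0.261). Cd59a, which blocks the membrane attack complex, was among the 3 with a negative log2 fold change, at -0.51 ± 0.21. Without old replicate 2, old replicate 3 or young replicate 3, 0 complement genes were called by edgeR, and without young replicate 1 there was 1 and without young replicate 2 there were 2.

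Psmb8, an immunoproteasome subunit that shapes peptides for MHC class I (chr 17, 34197721 to 34201454), had 60.3, 56.2 and 66.3 CPM in old and 30.1, 26.5 and 27.1 CPM in young libraries. Both groups were tight and well apart, and the log2 fold change was 1.13 ± 0.16 (adjusted p = 0.0227).

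Of 16 genes of MHC class I presentation tested, Psmb8 alone was called, all 16 had a positive log2 fold change, and the median was 0.69. The libraries of 10 of the 16 did not overlap, with old higher, against 7.33% of all genes tested. H2-K1, a classical class I heavy chain, had 266, 198 and 231 CPM in old and 128, 109 and 121 CPM in young libraries (adjusted p = 0.0606). B2m, the light chain that all class I molecules share, had 1650, 1833 and 1947 CPM in old and 1209, 1309 and 1309 CPM in young libraries (adjusted p = 0.407). The class I heavy chain genes are similar to each other, so their single values are uncertain where reads were shared. Of 7 MHC class II genes tested 0 were called by edgeR or DESeq2, 2 had an unadjusted p under 0.05, and the median was 0.42.

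Of 31 interferon-stimulated genes tested, 0 were called by edgeR, 30 had a positive log2 fold change, and the median was 0.68. In 15 of the 31 the old libraries were all above the young ones, against 7.33% of all genes tested. Unadjusted p was under 0.05 for 18 of them, against 1084 of all 13321 genes tested, and DESeq2 called 2. Iigp1, an interferon-induced GTPase, had 24.1, 37.9 and 42.3 CPM in old and 10.1, 9.64 and 15.9 CPM in young libraries (adjusted p = 0.0674), and Gbp2, a guanylate-binding protein, 52.1, 77.7 and 55.9 CPM in old and 29.3, 35.5 and 32.2 CPM in young libraries (adjusted p = 0.103). Trim30a had 188 CPM in old replicate 3, against 10.8 and 7.02 CPM in the other old libraries and at most 3.74 CPM in young ones, so 1 library holds most of its old level, and its log2 fold change was 4.44 ± 1.13. Over all other fits, the median of this list ran from 0.58 to 0.74 and that of the class I list from 0.62 to 0.76.

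**Figure D4:**
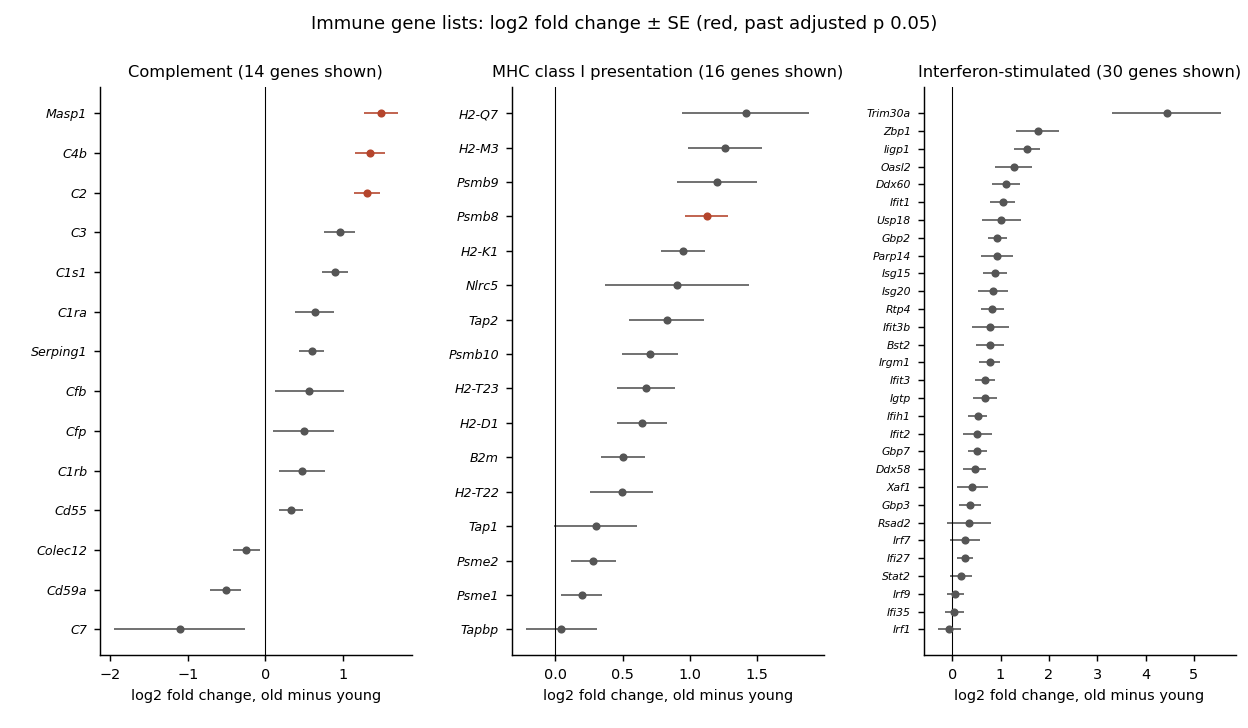
Log2 fold change (old minus young, point) and its standard error (bar) for 14 of the 15 complement genes tested, 16 genes of MHC class I presentation and 30 of the 31 interferon-stimulated genes tested, sorted within each panel. Red points (Masp1, C4b, C2 and Psmb8) were past an adjusted p of 0.05, and 11, 16 and 29 points lie to the right of 0.

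Markers of other cell types were set beside these values. Of 12 markers of macrophages and monocytes 9 were tested, and 0 were called by edgeR or DESeq2. An unadjusted p under 0.05 was found for 6, against 1084 of all 13321 genes tested. Of the 9, 4 did not overlap with old higher, against 7.33% of all genes tested, and the median was 0.81. The summed level of the 12 was 268 to 288 CPM in old and 229 to 272 CPM in young libraries, with overlap. Without 1 gene that is not named here, the summed level of the other 11 was 61.4 to 122.3 CPM in old and 45.2 to 60.4 CPM in young libraries. These did not overlap, by a small margin, so the separation of the sums depended on leaving that gene out. C1qa, a complement gene made by macrophages and not counted in the complement list, had 5.08, 4.21 and 5.31 CPM in old and 2.12, 0.903 and 2.42 CPM in young libraries. Markers of blood endothelium summed to 679 to 971 CPM in old and 540 to 730 CPM in young libraries, and T cell markers to 5.62 to 24.1 CPM in old and 6.63 to 9.48 CPM in young libraries. Cd79a and Blk of B cells, Mzb1 of plasma cells and Ccr7 of dendritic cells had 0 counts in all 6. The part of these cells in the complement, class I and interferon values was not tested.

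The chemokines and survival factors that define lymph node stroma did not pass the threshold. Of 10 tested out of 14, 0 were called by edgeR, and 6 had an unadjusted p under 0.05, against 1084 of all 13321 genes tested. DESeq2 called 2, 9 had a positive log2 fold change and the median was 0.55. Cxcl12, which holds lymphocytes and plasma cells near stroma, had 745, 643 and 801 CPM in old and 421, 516 and 320 CPM in young libraries. The ages did not overlap, but the adjusted p was 0.215. Il33, an alarmin stored in the nucleus of these cells, had 198, 58.5 and 116 CPM in old and 56.6, 53.0 and 47.6 CPM in young libraries (adjusted p = 0.297). Il7 had 18.1, 21.5 and 26.6 CPM in old and 10.4, 10.8 and 19.6 CPM in young libraries, with overlap.

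Cxcl13, the chemokine of B cell follicles, had 22.2, 11.7 and 8.08 CPM in old and 3.26, 1.81 and 10.8 CPM in young libraries, also with overlap. Csf1, the growth factor of macrophages, had 179, 195 and 153 CPM in old and 130, 155 and 98.3 CPM in young libraries. Flt3l, which sustains dendritic cells, had 20.3, 23.9 and 26.6 CPM in old and 18.4, 19.0 and 18.7 CPM in young libraries. Icosl, Il15 and Dll1 overlapped between the ages, with log2 fold changes of 0.65 ± 0.26, 0.11 ± 0.36 and -0.45 ± 0.35. Ccl19 had a log2 fold change of 0.01 ± 0.71, a standard error set by old replicate 1. Ccl21a, Tnfsf13b, Tnfsf11 and Dll4 had too few counts to be tested.

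Coch, cochlin, an extracellular protein known from the inner ear and from follicular dendritic cells of lymph nodes (chr 12, 51593341 to 51605771), had 302, 226 and 407 CPM in old and 95.7, 62.3 and 87.1 CPM in young libraries. The lowest old library was far above the highest young one, and the log2 fold change was 1.93 ± 0.25 (adjusted p = 0.0153). Of 7 marginal and follicular reticular cell genes tested, 4 had a positive and 3 a negative log2 fold change, with a median of 0.15. Coch was the only one of them called, against 0.113% of all genes tested called higher. In no other group of the series was its mean above 38.6 CPM, against 320 CPM in old and 79.8 CPM in young lymph node fibroblasts on the scale of all libraries.

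The other genes called higher were of mixed kinds. Casp4, an inflammatory caspase that senses lipopolysaccharide (chr 9, 5308828 to 5336783), had 28.9, 34.6 and 18.9 CPM in old and 8.30, 5.12 and 8.60 CPM in young libraries, and was called in none of the 6 fits that left out 1 library. Lepr, the leptin receptor (chr 4, 101717404 to 101815352), had 33.3, 36.5 and 42.5 CPM in old and 15.1, 15.1 and 17.9 CPM in young libraries (log2 fold change 1.23 ± 0.19, adjusted p = 0.032). Serpina3n, an acute-phase protease inhibitor (chr 12, 104406729 to 104414329), had 106, 119 and 125 CPM in old and 41.7, 53.0 and 39.5 CPM in young libraries (log2 fold change 1.39 ± 0.17, adjusted p = 0.0153). For all 3 the old libraries lay clearly above the young ones.

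Gldn, gliomedin, a protein of the node of Ranvier in nerves (chr 9, 54286486 to 54341786), averaged 50.5 ± 7.54 CPM in old and 13.7 ± 5.19 CPM in young libraries (SD, n = 3 each). Stmn2, a microtubule regulator of neurons (chr 3, 8509360 to 8561606), averaged 154 ± 49.0 CPM in old and 54.1 ± 6.78 CPM in young libraries. Sectm1a, a secreted and membrane-bound ligand of T cells (chr 11, 121067407 to 121081220), averaged 24.1 ± 0.19 CPM in old and 9.50 ± 1.83 CPM in young libraries, and Cyp2f2, a cytochrome P450 (chr 7, 27119909 to 27133660), 474 ± 98.7 CPM in old and 209 ± 22.4 CPM in young libraries. Outside the rule for naming, Slit2, a guidance cue, averaged 79.6 ± 11.5 CPM in old and 38.2 ± 1.90 CPM in young libraries, and Akr1c13, an aldo-keto reductase with close relatives in the genome, 17.0 ± 1.08 CPM in old and 2.93 ± 0.86 CPM in young libraries.

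Over all 13321 genes tested, 1084 had an unadjusted p under 0.05 and DESeq2 called 134. Larger shares of memberships were found in the 23 of 30 lists, cartilage and tendon aside, with 0 genes called by edgeR. These 23 lists held 109 memberships with an unadjusted p under 0.05 and 19 called by DESeq2. Among them were 36 genes of TGF-beta and BMP signalling with a median of 0.06, 36 of Wnt signalling (0.29), 36 growth factors and receptors of mesenchymal cells (0.05), 19 of lymphotoxin and NF-kappaB signalling (0.09), 33 proliferation genes (0.31), 14 cell cycle inhibitors and senescence-associated genes (0.03) and 20 of the unfolded protein response (0.04). Ccn2, a matricellular target of TGF-beta, had 266, 391 and 557 CPM in old and 891, 825 and 1363 CPM in young libraries (adjusted p = 0.12). Of 7 genes of T zone reticular cells, 7 had a positive log2 fold change, with a median of 0.37, and the median over 12 genes of adventitial CD34 fibroblasts was 0.21. The medians lay near 0 for 43 nuclear genes of oxidative phosphorylation (-0.06), 21 of cholesterol synthesis (-0.06) and 17 of the circadian clock (-0.08), and took both signs over the other fits. Among 12 perivascular and contractile genes the median was 0.57, with 0.26 to 0.78 over the other fits, and 5 did not overlap with old higher, against 7.33% of all genes tested. Acta2, smooth muscle actin, was among these 5, with 98.8, 74.4 and 82.7 CPM in old and 60.1, 51.5 and 63.7 CPM in young libraries. For 21 inducible cytokines and chemokines the median was 0.55, and for 30 immediate-early and heat-shock genes, which respond to handling of tissue, it was -0.20.

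Age changes were then set against those of other sorts through the interaction of sort and age, which tests the difference between changes. Against muscle fibroblasts (3 libraries of each age), 2 of 14075 genes tested passed (0.0142%). There were 5 without old replicate 1 of lymph node fibroblasts or old replicate 3 of muscle fibroblasts. Cyp2f2 had 486 ± 112 CPM in old and 205 ± 27.8 CPM in young lymph node fibroblasts, and 9.78 ± 0.80 CPM in old and 46.8 ± 15.0 CPM in young muscle fibroblasts (SD, n = 3 each). The directions were opposite, and the log2 difference was 3.37 ± 0.40 (adjusted p = 0.000944). Thymic fibroblasts had 21.9 ± 5.74 CPM of Cyp2f2 in old and 11.9 ± 3.35 CPM in young libraries (SD, n = 4 each). The log2 difference from them was 0.25 ± 0.33 (adjusted p = 0.905 in the same kind of test). Col8a1 had 849 ± 302 CPM in old and 3417 ± 630 CPM in young lymph node fibroblasts, and 251 ± 31.2 CPM in old and 127 ± 56.8 CPM in young muscle fibroblasts (SD, n = 3 each). Its log2 difference was -3.13 ± 0.48 (adjusted p = 0.0243), and the call was lost (adjusted p 0.0508 to 0.122) without old replicate 2 or young replicate 3 of lymph node fibroblasts, or without old replicate 1 or young replicate 1 or 2 of muscle fibroblasts.

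Against thymic fibroblasts (4 libraries of each age), 24 of 14658 genes passed (0.164%), 8 higher and 16 lower. Without old replicate 1 or 2 of lymph node fibroblasts there were 7 calls, and without their young replicate 3 there were 6. Without old replicate 1, 2 or 3 of thymic fibroblasts there were 8, 13 and 10, and without their young replicate 2 or 3 there were 6 and 14. Col8a1 differed here as well: thymic fibroblasts had 41.6 ± 4.98 CPM in old and 16.4 ± 1.84 CPM in young libraries (SD, n = 4 each), and the log2 difference was -3.46 ± 0.33 (adjusted p = 1.49e-05). Masp1 had 97.8 ± 27.9 CPM in old and 33.4 ± 3.51 CPM in young lymph node fibroblasts (SD, n = 3 each), against 23.5 ± 0.96 CPM in old and 35.4 ± 5.56 CPM in young thymic fibroblasts (SD, n = 4 each), with a log2 difference of 2.02 ± 0.28 (adjusted p = 0.00502). Col11a1 had a log2 difference of -4.17 ± 0.65 (adjusted p = 0.00971). Its level was 132 CPM in old and 380 CPM in young lymph node fibroblasts. In thymic fibroblasts it was only 1.84 CPM in old and 0.314 CPM in young, so the size of the difference rests on levels near the floor. Scara5, a ferritin receptor of fibroblasts, had 94.5 ± 30.2 CPM in old and 55.7 ± 11.4 CPM in young lymph node fibroblasts (SD, n = 3 each), and 229 ± 46.6 CPM in old and 475 ± 45.9 CPM in young thymic fibroblasts (SD, n = 4 each). Its call was lost in 4 of the 14 fits that left out 1 library.

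Most genes named above for their age change, among them Peg3, Nrep, Psmb8, C4b and Lepr, did not pass in either of these interactions. Nor did Coch, C2, Serpina3n, Casp4, Stmn2, Gldn, Sectm1a, Dipk2a and Erg. The same held for the cartilage genes Col9a1, Col2a1, Col9a3, Cnmd, Hapln1, Matn3 and Mia. Peg3 had 96.2 ± 30.5 CPM in old and 201 ± 44.6 CPM in young muscle fibroblasts (SD, n = 3 each) and 45.8 ± 9.99 CPM in old and 90.8 ± 29.6 CPM in young thymic fibroblasts (SD, n = 4 each), and its log2 differences were -0.67 ± 0.35 and -0.78 ± 0.32. A p that misses the threshold does not show that these changes are alike. Against lymph node endothelial cells (3 libraries of each age), the other sort of stroma from lymph nodes, 0 of 14952 genes passed with edgeR, 1060 had an unadjusted p under 0.05, and DESeq2 called 81. The lowest adjusted p was 0.134.

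**Figure D5:**
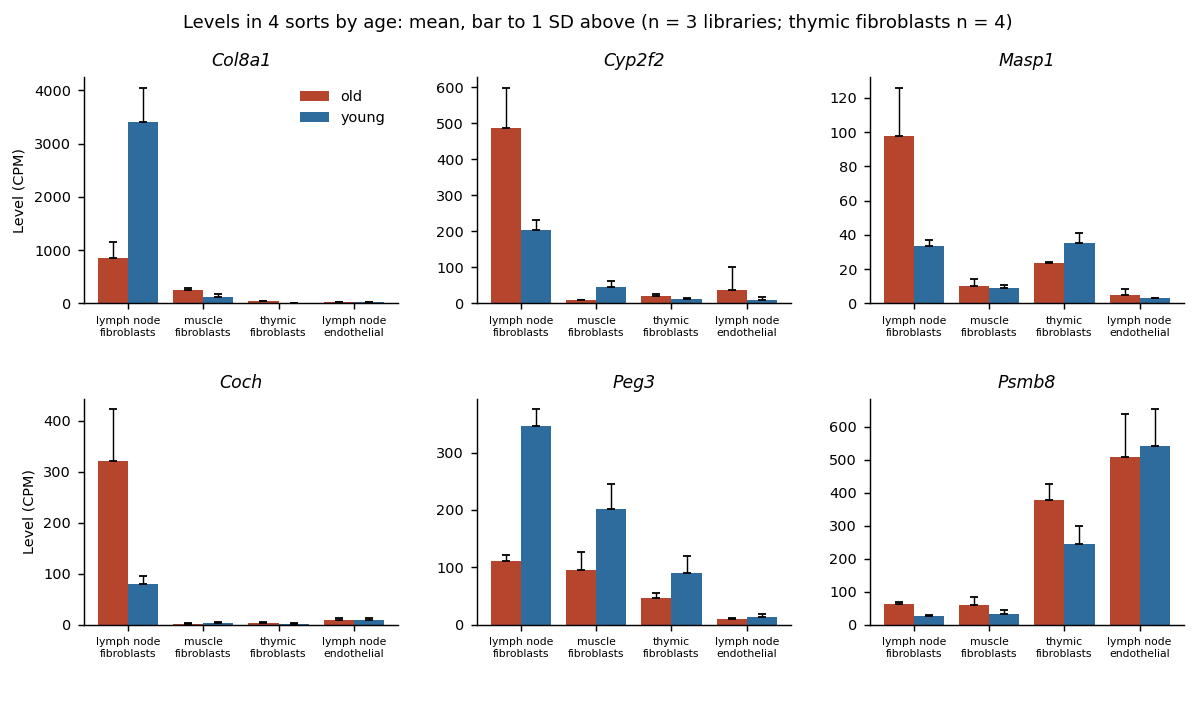
Mean level (CPM, linear axis from 0) of 6 genes in old (red, left) and young (blue, right) libraries of 4 sorts, scaled by library total only, with a line to 1 SD above the mean (n = 3, thymic fibroblasts n = 4). Col8a1 and Coch stand highest in lymph node fibroblasts, and Cyp2f2 runs opposite ways with age in lymph node (486 CPM in old, 205 CPM in young) and muscle fibroblasts (9.78 CPM in old, 46.8 CPM in young).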

How the data were processed

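Libraries captured poly(A) RNA at its 3' end and gave each read a sample index and a unique molecular identifier, per the labels' protocols. Per the submitters' processing notes the tools were STAR, sabre 80faf94 and featureCounts 2.0.1, and the builds mm10 and GRCm38.p6. Whether identifiers served to remove copies, the strand setting and the handling of reads shared by similar genes are unknown here. The deposited values are whole-number counts whose totals differ between libraries, read as not normalized, in a table of 55484 genes and 170 libraries. Groups come from the sample titles. The labels give replicate numbers but no pairing of old with young pools.

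R 4.3.3 and edgeR 4.0.16 were used, with TMM scaling and the functions glmQLFit and glmQLFTest, on the 6 libraries alone. The filterByExpr settings were a count of 10 and a total of 15 as minimum. P-values were adjusted by Benjamini-Hochberg over all genes tested, with a threshold of 0.05. Differences between sorts were tested by the interaction of sort and age, in 1 fit per pair of sorts. The script was tested on simulated counts. None of the 15 pairs of libraries held identical values, and libraries of the same age differed by a chi-square of at least 6.71 per degree of freedom. Coordinates and gene types are from GENCODE M21, which names 53362 of the genes. Dipk2a has no entry there under that name.

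Genes were named if called, with no overlap between libraries and a mean of 20 CPM or more in the higher group. Of these the 12 highest and 12 lowest log2 fold changes were taken. Immunoglobulin and T cell receptor segments, antisense genes, pseudogenes, unnamed models, Xist, Tsix and genes of the Y chromosome were left out. Up to 4 called members of each list, the markers and the stromal chemokines were added. In the interactions up to 4 genes of each direction with 20 CPM or more in 1 group were taken. A few genes of the lists are not reported here by name, though counts and medians of their lists include them. The members, lists and tests were chosen with earlier results of these data known, and the lists of cartilage and tendon genes after the values were seen. Other settings tried were size factors by RLE, all genes without a filter, DESeq2 1.42.0, a replicate block, each library left out, and a spread estimated over all 23 cell types. Of the 34 called genes 22 had a promoter in the RefSeq table.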

Additional observations from a re-analysis of the deposited data

Results flagged for a closer look

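Of the genes past the threshold in the interactions with age, 2 against muscle and 24 against thymic fibroblasts, 9 are named here. For each, the test was of the difference between the age change in lymph node fibroblasts and that in another sort. A pass does not show a change in lymph node fibroblasts, where Wfdc17, Col18a1, Scara5, Slpi and Sox6 were not called. Against muscle fibroblasts the log2 difference was 3.37 for Cyp2f2 and -3.13 for Col8a1. Against thymic fibroblasts it was 2.67 for Wfdc17, 2.33 for Col18a1, 2.02 for Masp1 and 1.69 for Scara5, and -4.17 for Col11a1, -4.09 for Slpi, -3.46 for Col8a1 and -2.74 for Sox6. In young thymic fibroblasts Col11a1, Slpi and Sox6 averaged 0.314, 1.11 and 1.54 CPM, so the size of their differences rests on low levels there. Slpi, a secreted inhibitor of leukocyte proteases, had 34.6 ± 7.90 CPM in old and 45.0 ± 10.4 CPM in young lymph node fibroblasts (SD, n = 3 each), and 13.6 ± 7.69 CPM in old and 1.11 ± 0.68 CPM in young thymic fibroblasts (SD, n = 4 each). Wfdc17, a small secreted protein of myeloid cells, had 28.9 ± 11.7 CPM in old and 7.67 ± 2.66 CPM in young lymph node fibroblasts (SD, n = 3 each), and 3.14 ± 0.17 CPM in old and 5.97 ± 2.14 CPM in young thymic fibroblasts (SD, n = 4 each). Its adjusted p of 0.0485 in edgeR's interaction test was lost in 11 of the 14 fits that left out 1 library, that of Sox6 in 9, and that of Col18a1 in 2.

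The Y-linked gene Ddx3y, which no comparison used, had 42.8 CPM in young replicate 1, from 263 counts, against at most 4 counts in each of the other 5 libraries. On the scale of all libraries its highest level was 156.3 CPM in young and 1.86 CPM in old muscle fibroblasts. In thymic fibroblasts it was 39.6 CPM in young and 1.03 CPM in old. The part of this in the interactions was not tested. Xist, the RNA of the inactive X chromosome, had 139 to 147 CPM in old libraries and 93.6 to 106 CPM in young ones.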

How the results depend on the processing

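All 34 called genes kept their sign in the 11 other fits, which says little, since the ages did not overlap for any of them. The medians of 13 of 30 lists took both signs over the fits, among them those of basement membrane and conduit components (-0.06 to 0.13), matrix proteases (-0.06 to 0.18), cholesterol synthesis (-0.22 to 0.34) and the circadian clock (-0.14 to 0.03). Numbers of calls moved more. With no filter on low counts edgeR called 310 genes between the ages, 88 against muscle fibroblasts, 266 against thymic fibroblasts and 200 against lymph node endothelial cells. DESeq2 called 134, 37, 159 and 81 in the same order, and RLE size factors gave 15 against thymic fibroblasts. A spread estimated over all 23 cell types gave 30 calls between the ages, 15 of them among the 34, with 1 complement gene. Leaving out 1 library gave 0 to 36 calls between the ages, 0 to 4 complement genes, 1 to 5 calls against muscle fibroblasts, 6 to 35 against thymic fibroblasts and 0 to 1 against lymph node endothelial cells. Without old replicate 3 and without young replicate 3, 0 and 3 of the 34 were called. The cause was not tested.

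Whether the replicate numbers pair the libraries could not be decided, since with 3 libraries of each age the deviations from the group mean are tied to each other. These deviations correlated at 0.0901, -0.079 and 0.226 for the same number, and not every library correlated best with its own number. With the replicate block edgeR called 35 genes between the ages, 25 of them among the 34, and 1, 15 and 3 in the interactions with muscle fibroblasts, thymic fibroblasts and lymph node endothelial cells. Of the 374 combinations of a called gene and another fit, 163 lost the call. At totals from 2116285 counts, 13321 of 55484 genes had enough counts to be tested.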

Other observations

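Values for a few more genes stood out without passing the threshold of edgeR's quasi-likelihood test. Pdgfrl, a protein related to the receptors of platelet-derived growth factor, had 126, 107 and 114 CPM in old and 285, 199 and 233 CPM in young libraries, with an adjusted p of 0.0556. Igfbp4, which binds insulin-like growth factors, had 524, 585 and 571 CPM in old and 333, 249 and 263 CPM in young libraries, with an adjusted p of 0.0573. Efemp1, fibulin 3, a glycoprotein of elastic fibres, had 473, 589 and 448 CPM in old and 273, 286 and 293 CPM in young libraries, and Eln, elastin itself, 388, 209 and 218 CPM in old and 920, 455 and 559 CPM in young libraries. The ages did not overlap for any of these 4 genes. They were picked after their values were seen, and the values are a description.

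Gm43247, an unnamed gene model, had 0.318, 2.34 and 3.0 CPM in old and 124, 4.22 and 123 CPM in young libraries, so young replicate 2 lay near the old libraries.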
